A study of Rattus norvegicus with 9 samples.

Results

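The array carried 962 probes for transcribed ultraconserved regions, of 24684 probes for coding and noncoding transcripts in all. They were chosen by name alone: each is called uc. followed by an element number and a strand sign, such as uc.189+. The 962 probes cover both strands of 481 elements, numbered from 1 to 483, with 1 spot per probe. Ultraconserved elements are stretches of genome that are the same, base for base, in human, mouse and rat. Some lie in exons of genes for splicing and RNA-binding proteins, some in introns, and others between genes, often near genes for developmental transcription factors. Many are transcribed from one or both strands, and the transcripts, known as T-UCRs, have been studied mostly in cancer, hypoxia and the heart.

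Kidney RNA came from 9 male rats of 3 inbred strains, with 3 samples per strain. The Dahl salt-sensitive strain (Dahl S) develops high blood pressure on a high-salt diet, the Dahl salt-resistant strain (Dahl R) was bred beside it as its resistant counterpart, and the spontaneously hypertensive rat (SHR) becomes hypertensive without added salt. All 3 groups were 53 days old and had eaten low-salt food (0.3%) since weaning at 30 days, so Dahl S had not been given a high-salt diet in this experiment. Each sample was labelled with Cy3 from 1 μg of total RNA and put on a one-colour Agilent array of its own. The labels say that the rats were born on one day, but not whether samples shared a litter or a preparation, so p-values measure the spread between these samples. Whole tissue was used: fewer cells of a type and less RNA per cell cannot be told apart.

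SHR replicate 3 stood apart from the other 8 arrays. Its median local background was 88, against 43 to 45 elsewhere, and 43.1% of all probes were well above background on it, against 60.1% to 70.3% elsewhere. Levels are given on the log2 scale relative to the 75th percentile of the same array, so that 0 is that percentile. On SHR replicate 3 the ultraconserved-region probes that were not above background had a median level of -4.56, whereas on the other arrays this median lay between -9.12 and -7.69. A dim probe therefore read higher on SHR replicate 3 than elsewhere with no detected signal. Many differences from SHR, though not all, are given with and without that array. The arrays also fell into 3 groups by the scan date in their headers. These groups are called slides here, although no slide label was read. The first held all Dahl S arrays and Dahl R replicate 1. The second held Dahl R replicates 2 and 3 and SHR replicates 1 and 2, and SHR replicate 3 was alone on the last. Dahl S and SHR never shared a slide. Of 11 kidney segment markers on the array, 10 were above background on all 9 arrays. All 3 fat markers (Adipoq, Ucp1, Fabp4) were too. Markers of other tissues were mixed. Of the adrenal cortex, Cyp11b1 was above background on 8 arrays, Star on 3 and Cyp11b2 on 0. Of the adrenal medulla, Th was on 7 and Dbh on 0. Of the brain genes, Gfap was on 8 and Syt1 and Neurod1 on 0. Of the liver genes, Alb was on 8 and Serpina1 on 7.

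Most ultraconserved-region probes gave no signal above background in the rat kidney. A total of 554 of the 962 were well above background on no array, 128 on 1 array and 41 on 2 arrays. At the other end, 92 were detected on 8 arrays and 46 on all 9. The numbers between were small, from 14 to 24 probes for each count from 3 to 7 arrays. Leaving out SHR replicate 3, 136 probes were detected on all of the other 8 arrays. The 128 probes seen on a single array were spread over all of them, from 1 on SHR replicate 3 to 27 on SHR replicate 2, and were by this count not seen in another rat.

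The share detected was 17.4%, 25.9% and 19.5% on the Dahl S arrays, 29.9%, 21.9% and 23.7% on the Dahl R arrays, and 21.4%, 28.8% and 5.09% on the SHR arrays. The 3 strains overlapped, and the lowest value is that of SHR replicate 3. On every array the share was below that of each other class of probe examined. Noncoding transcripts with names beginning with MRAK were detected at 41.8% to 55.2% on the 8 other arrays and 22.9% on SHR replicate 3. Those beginning with MRuc were detected at 39.3% to 54.0% and 22.8%, and RefSeq transcripts with XR or NR accessions at 38.5% to 51.2% and 22.8%. For RefSeq mRNAs, a class that also took Ensembl transcript names, the shares were 71.7% to 80.2% and 55.2%. On all 3 arrays of a strain, 145 ultraconserved-region probes were detected in Dahl S, 188 in Dahl R and 48 in SHR, or 193 in SHR replicates 1 and 2 alone.

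**Figure D1:**
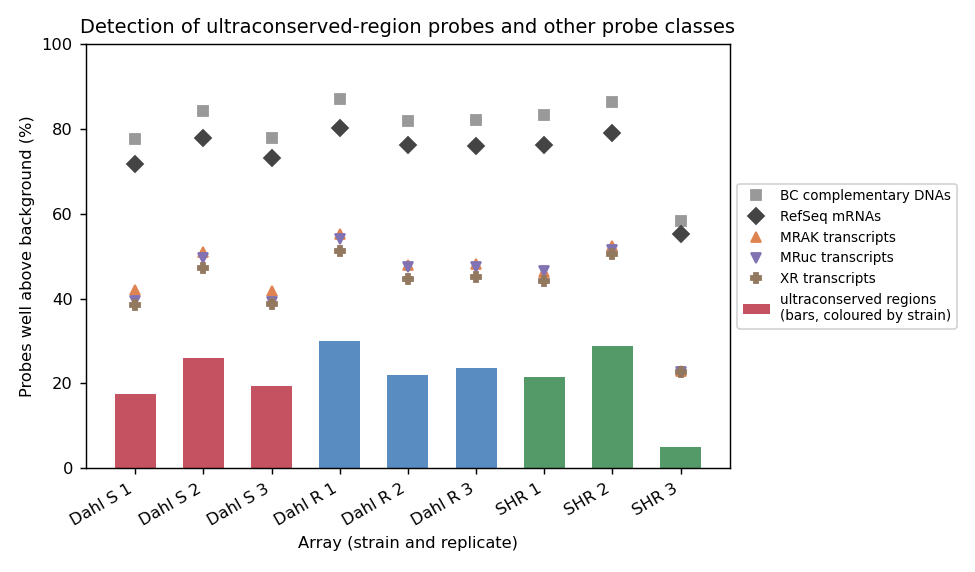
Share of probes well above background on each array (vertical axis, percent) for the ultraconserved-region probes (bars, coloured by strain) and 5 other probe classes (symbols). The bars lie between 17.4% and 29.9% on 8 arrays and at 5.09% on SHR replicate 3, below every symbol of the same array.

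A strain comparison was made for the 239 probes detected (well above background) on 3 or more arrays, 112 for plus strands and 127 for minus strands. This is 24.8% of the ultraconserved-region probes, whereas 67.2% of all probes passed the same filter. The other 723 probes are described by their detection only. Among the 239, 0 were detected in a single strain. Levels and their spread followed detection. The 46 probes on all 9 arrays had means over the 8 arrays other than SHR replicate 3 from -4.08 to 4.72 with a median of -0.17, and the median SD between replicates was 0.20 in Dahl S and 0.15 in Dahl R. For the 92 probes on 8 arrays the median level was -4.17 and the median SDs were 0.22 and 0.18. Probes on 3 to 7 arrays had a median level of -6.22 and wider median SDs of 0.48 and 0.29. Only 21 of the 962 had a mean above their arrays' 75th percentile.

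More elements had a single strand detected than both. With detection taken as 3 or more arrays, 47 elements had both strands detected, 65 the plus strand alone, 80 the minus strand alone, and 289 neither. The minus strand was detected for 42.0% of the elements whose plus strand was detected and for 21.7% of the rest. At 8 or more arrays the counts were 22 with both, 40 plus alone and 54 minus alone. Both strands were on all 9 arrays for 3 elements, uc.75, uc.268 and uc.420. In 4 elements the plus strand was on all 9 arrays and the minus strand on none (uc.415, uc.427, uc.428 and uc.432). The reverse held in 11 elements (uc.10, uc.84, uc.144, uc.162, uc.173, uc.193, uc.310, uc.360, uc.448, uc.460 and uc.465). The strand signs are those of the array's names, and the orientation of a probe towards a host gene was not analysed here.

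**Figure D2:**
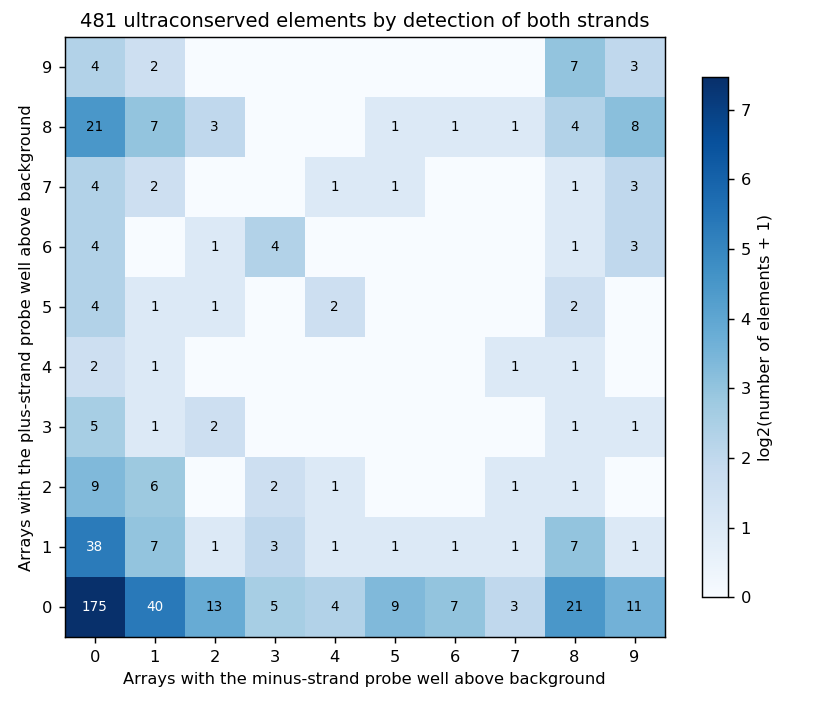
Number of elements (printed in each cell, colour on a log2 scale) by the number of arrays on which the plus-strand probe (vertical axis) and the minus-strand probe (horizontal axis) were well above background. Of the 481 elements, 3 lie in the corner where both strands were on all 9 arrays, 4 had the plus strand on 9 and the minus strand on 0 arrays, and 11 the reverse.

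The 5 probes with the highest mean levels were uc.84-, uc.46-, uc.141-, uc.45- and uc.154+. None of the 5 passed the threshold between strains. uc.84- read 4.83, 4.98 and 4.97 in Dahl S, 5.0, 4.69 and 4.54 in Dahl R, and 4.62, 4.10 and 2.69 in SHR. Its SHR values spread widely, with SHR replicate 3 the lowest, and Dahl S and Dahl R overlapped. The other 4 have no usable value on SHR replicate 3, where their spots were marked as outliers and were left out. uc.141- differed by -0.10 ± 0.11 (SE) between Dahl S and Dahl R and by 0.01 ± 0.12 between SHR and Dahl R, and uc.45- by 0.10 ± 0.09 and 0.02 ± 0.10. uc.46- was at 4.26 ± 0.18 (SD, n = 3) in Dahl S, 4.16 ± 0.04 (n = 3) in Dahl R and 3.92 ± 0.08 (n = 2) in SHR. Its difference between Dahl S and SHR, 0.35 ± 0.13, had a limma adjusted p of 0.125. uc.154+ was at 3.81 ± 0.16 (n = 3), 3.69 ± 0.04 (n = 3) and 3.79 ± 0.04 (n = 2) in the same order.

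The first comparison asks whether the salt-sensitive and the salt-resistant Dahl strains differ in kidney RNA on the low-salt diet. Of the 239 probes tested, 1 was lower in Dahl S and 0 were higher, at a limma p-value adjusted over all 16592 tested probes below 0.05. The background in all tested probes was 0.705% higher and 0.699% lower in Dahl S. Without adjustment, 18 probes had p below 0.05, beside 10.5% of all tested probes. Of the 239 differences, 212 were within 1 log2 unit, and their median was -0.05, beside 0.02 for all tested probes. The strains did not overlap for 52 of the 239 probes, beside 31.1% of all tested probes.

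The probe that passed was uc.95-. It read -7.74, -8.89 and -8.00 in Dahl S, where it was above background on 0 arrays. In Dahl R it read -5.28, -5.29 and -5.37 and was detected on all 3 arrays. In SHR it read -6.01, -5.23 and -4.68 and was detected on replicates 1 and 2. Dahl S therefore lay below every array of the other strains. Because Dahl S gave no signal above background, the Dahl R mean was set against a ceiling for Dahl S and lay 2.18-fold above it. On each Dahl S array the ceiling is the lowest level of any probe well above background, or the level of uc.95- itself where that is higher, and the 3 are averaged. It is not a strict limit, so the fold is not a strict lower bound. On Dahl S replicate 1, uc.160- read -6.10 without signal above background, over a lowest detected level of -6.18. The fitted difference was -2.90 ± 0.38 (SE, adjusted p = 0.0136, limma), lower in 3 of 3 samples. The opposite strand, uc.95+, was above background on no array. With the slide as a block the adjusted p was 0.0783 and the background was 0.988%. On slide 1 alone, Dahl S against Dahl R replicate 1, the difference was -2.93 with an adjusted p of 0.251. With background corrected by normexp, in place of the scanner's processed signal, the difference turned to 0.72.

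Single arrays decided how many probes passed in this comparison. Leaving out Dahl R replicate 1, 2 or 3 or Dahl S replicate 3 gave 0, beside 104, 74, 86 and 80 of all tested probes. Leaving out Dahl S replicate 1 or 2 gave 2 each, beside 125 and 78. Leaving out SHR replicate 1, an array used here for the estimate of spread alone, gave 3, beside 210. These fits tested 16206 to 16561 probes. Without SHR replicate 3, 1 probe was higher and 4 were lower in Dahl S, beside 2.52% and 2.08% of all probes.

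The second comparison sets the strain with salt-induced hypertension against the strain with spontaneous hypertension. Of the 239 probes, 23 had a higher level in Dahl S than in SHR and 8 a lower one. As shares these are 9.62% and 3.35%, beside 7.08% and 8.62% of all tested probes. Among the 23 were uc.117+ at 5.57-fold, uc.407+ at 5.31-fold, uc.390+ at 4.55-fold and uc.3- at 4.42-fold, each detected on 2 of the 3 SHR arrays. uc.189+, of the Srsf3 locus, was detected on 1 SHR array, and its fitted fold was 5.58, or 8.22 without SHR replicate 3. The smallest fold among them was 1.56, and 19 of the 23 were 2-fold or more. The median difference over the 239 was -0.18, beside -0.09 for all probes. It was 0.05 without SHR replicate 3, so its sign depended on that array.

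All 23 higher probes were detected on all 3 Dahl S arrays, 22 on all 8 arrays other than SHR replicate 3, and 6 on that array. A higher level in Dahl S itself favours detection there, so the counts for Dahl S go partly with the direction of the call. All 23 remained past the threshold without SHR replicate 3, and all kept their sign with the slide as a block and with normexp. Of the 8 lower probes, 4 were above background on no Dahl S array and 2 on all 3. Without SHR replicate 3, 7 of the 8 remained, and uc.299+ had an adjusted p of 0.0536. With normexp, 3 of the 8 kept their sign.

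uc.117+ read -2.61, -3.07 and -2.29 in Dahl S, -3.26, -2.79 and -2.85 in Dahl R, and -5.40, -5.39 and -4.61 in SHR, the last without signal above background. All SHR arrays lay below all Dahl arrays, and the Dahl strains overlapped. The difference between Dahl S and SHR was 2.48 ± 0.28 (SE, adjusted p = 0.00123, limma), and 2.74 without SHR replicate 3. With the slide as a block it was 3.17 (adjusted p = 0.0103).

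uc.407+ followed the same order, with -2.21, -2.92 and -2.60 in Dahl S, -3.07, -2.90 and -3.32 in Dahl R, and -4.95, -5.50 and -4.50 in SHR. Dahl S exceeded SHR by 2.41 ± 0.28 (adjusted p = 0.00137, limma), and by 2.65 without SHR replicate 3. uc.390+ read -2.61, -3.23 and -3.29 in Dahl S, -4.06, -3.78 and -3.98 in Dahl R, and -5.39, -5.96 and -4.33 in SHR, so the 3 strains did not overlap. Its difference between Dahl S and SHR was 2.19 ± 0.39 (adjusted p = 0.00955), and 2.64 without SHR replicate 3.

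uc.408- was among the brighter of the 23 and had the smallest adjusted p. It read 1.07, 0.69 and 0.96 in Dahl S, 0.36, 0.38 and 0.18 in Dahl R, and -0.73, -0.82 and -1.08 in SHR, detected on all 9 arrays. No strain overlapped another. Dahl S exceeded SHR by 1.78 ± 0.14 (3.44-fold, adjusted p = 0.000224, limma), and with the slide as a block by 1.61 (adjusted p = 0.0191). uc.193-, detected on all 9 arrays, read -0.55, -0.65 and -0.98 in Dahl S, -0.83, -0.66 and -0.71 in Dahl R, and -1.75, -1.84 and -1.78 in SHR. Its SHR arrays agreed within 0.04 (SD) and lay below all Dahl arrays, with a difference from Dahl S of 1.06 ± 0.13 (adjusted p = 0.00146).

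uc.3- read -1.54, -2.26 and -1.97 in Dahl S, -2.24, -2.52 and -2.80 in Dahl R, and -3.53, -4.19 and -4.48 in SHR. Its difference between Dahl S and SHR was 2.14, and 1.94 without SHR replicate 3. The remaining named probes of this direction were uc.203+ (1.78), uc.377+ (1.64), uc.77- (1.62), uc.366- (1.53), uc.48- (1.46), uc.455- (1.41), uc.459- (1.35), uc.112- (1.31) and uc.455+ (1.11), each given as the log2 difference of Dahl S over SHR, with limma adjusted p from 0.00225 for uc.377+ to 0.0427 for uc.77-. Dahl S and SHR did not overlap for any of them. Without SHR replicate 3 the differences were 1.30, 1.71, 2.16, 1.43, 0.97, 1.22, 1.08, 0.87 and 1.24 in the same order. The last 8 of the 23 were uc.37+ (1.09), uc.475+ (1.07), uc.193- (1.06), uc.208- (1.01), uc.265+ (0.93), uc.436- (0.74), uc.184+ (0.70) and uc.75- (0.64).

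Of the 8 lower probes, uc.414- and uc.432+ were detected on all 9 arrays. uc.414- read -3.42, -3.37 and -3.30 in Dahl S, -2.47, -2.32 and -2.47 in Dahl R, and -2.44, -1.57 and -1.32 in SHR. Dahl S lay below both other strains, by 1.59 ± 0.26 on the log2 scale against SHR (a difference of -1.59, adjusted p = 0.00644, limma) and by -0.94 against Dahl R, which did not pass. uc.432+ read -1.23, -1.36 and -1.66 in Dahl S, -0.83, -0.24 and -0.57 in Dahl R, and -0.72, -0.04 and 0.07 in SHR, with a difference from SHR of -1.19 ± 0.25 (adjusted p = 0.0165). Both kept their sign with normexp, at -0.72 for uc.414- and -0.90 for uc.432+.

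The other 6 were at the edge of detection. For the 4 not detected in Dahl S, the mean of SHR replicates 1 and 2, where all 4 were detected, was set against the same kind of Dahl S ceiling. It lay above that ceiling by 1.76-fold for uc.95-, 1.43-fold for uc.457+, 1.48-fold for uc.378+ and 1.46-fold for uc.339-. With SHR replicate 3 in the SHR mean the same calculation gave 2.19, 2.04, 1.92 and 1.84, which rest in part on that array's readings below detection. On it all 4 were read near its undetected level, from -4.75 for uc.339- to -4.2 for uc.457+, and were not above background. The fitted differences without that array were -2.59, -1.09, -1.21 and -1.09 in the same order. uc.83+ differed by -2.07 with 9 arrays, by -1.63 without SHR replicate 3 and by -0.18 with the slide as a block. uc.299+ differed by -1.77 and -1.46 in the first and second of these, and with normexp it turned to 0.88. With normexp uc.95- turned to 0.17, uc.457+ to 0.37, uc.378+ to 0.70 and uc.339- to 0.45.

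**Figure D3:**
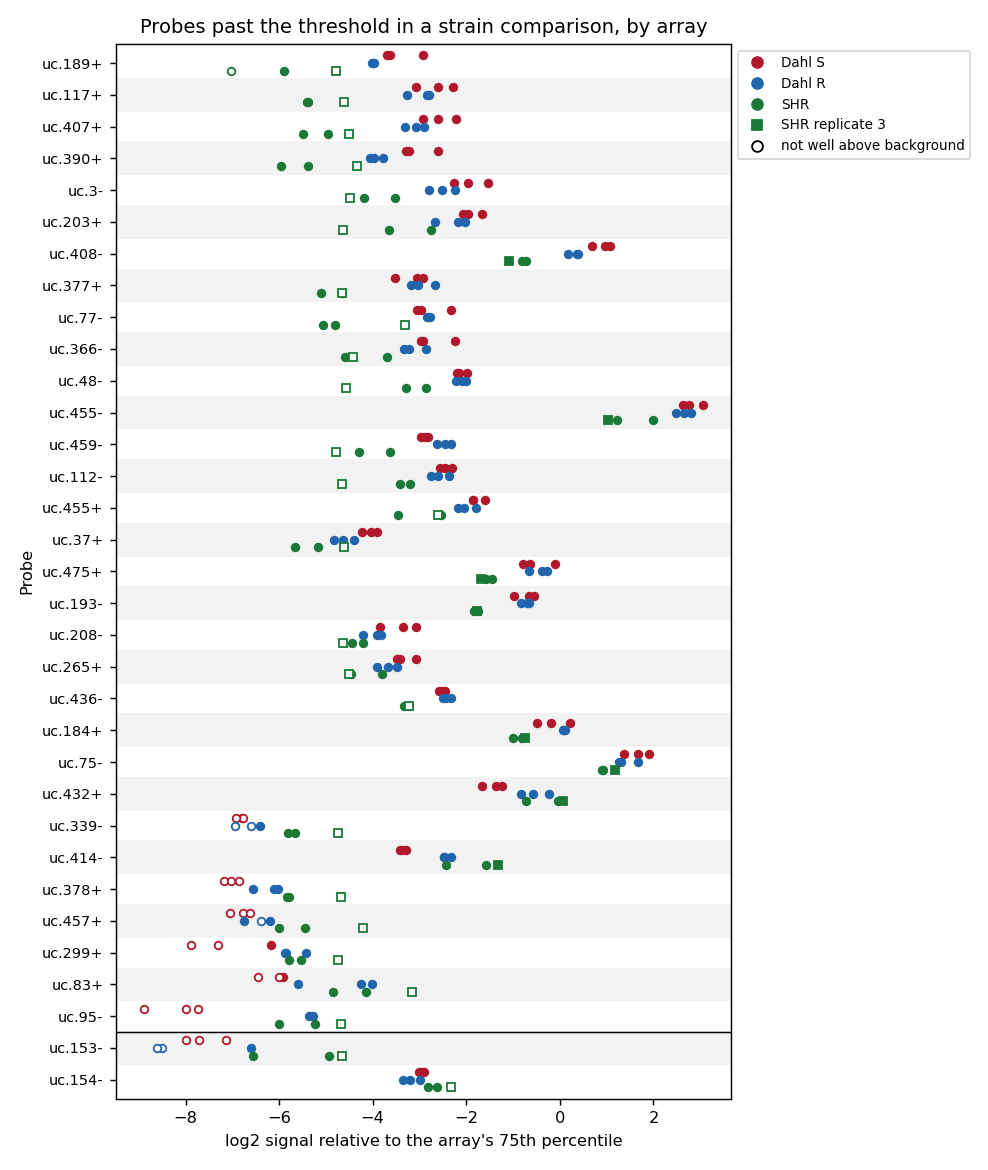
Level of each of the 33 probes past the threshold in at least 1 comparison, on each array (horizontal axis, log2 level, where 0 is the 75th percentile of that array). Colours give the strain, squares SHR replicate 3, and open symbols values not well above background. Probes are ordered by the difference between Dahl S and SHR, and those below the line passed in SHR against Dahl R alone. From uc.189+ to uc.75- the SHR symbols lie left of the Dahl S symbols, whereas in the dim probes at the bottom most Dahl S symbols are open.

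The split between directions changed with scaling. It was 23 higher and 8 lower as given, 14 and 2 with arrays scaled to the probes above background on every array, 12 and 0 with quantile normalization, 6 and 0 with normexp, and 6 and 1 with the percentile taken over probes without outlier spots. Among all probes past the threshold the higher share moved as well, from 45.1% to 54.3%, 55.2%, 70.4% and 47.8% in the same order. With the slide as a block, which links Dahl S to SHR only through the Dahl R arrays, 10 were higher and 1 was lower, beside 5.22% of all probes in either direction. Of the original calls, 8 of the 23 and 1 of the 8 (uc.339-) remained. Without SHR replicate 3, 40 probes were higher and 11 lower, or 16.7% and 4.60% of the 239, beside 13.0% and 13.2% of all probes. Without Dahl S replicate 1, 2 or 3 the total was 18, 18 and 19, in place of 31. Over all probes it was 1774, 1317 and 1518, in place of 2605.

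The last comparison, SHR against Dahl R, uses the same SHR arrays as the one above, so the pair share their SHR values. Of the 239 probes, 14 were lower in SHR than in Dahl R and 3 were higher, or 5.86% and 1.26%, beside 5.49% lower and 7.56% higher among all probes. Of the 14, 13 were detected on all 8 arrays other than SHR replicate 3. For all 17, SHR and Dahl R did not overlap, so the sign was bound to be the same within slide 2. That slide holds Dahl R replicates 2 and 3 and SHR replicates 1 and 2. The median difference over the 239 was 0.16 (all probes 0.11), and -0.16 without SHR replicate 3 (all probes 0.04). Lower calls made up 14 of the 17 as given, 11 of 11 with arrays scaled to the probes above background on every array, 5 of 5 with quantile normalization, 3 of 3 with the percentile over probes without outlier spots, and 2 of 2 with normexp. Over all probes past the threshold the share that was higher in SHR was 57.9%, 48.7%, 49.2%, 53.3% and 41.1% in the same order.

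The lower probes with the largest differences were uc.117+ at -2.17 ± 0.28, uc.189+ at -1.90 ± 0.50, uc.407+ at -1.89 ± 0.28, uc.377+ at -1.84 ± 0.21 and uc.459- at -1.77 ± 0.26 (log2 ± SE). Their limma adjusted p-values ran from 0.00153 for uc.377+ to 0.0463 for uc.189+. Within slide 2 alone the same probes differed by -2.58, -2.46, -2.11, -1.95 and -1.49, with adjusted p of 0.00251, 0.0438, 0.0265, 0.0288 and 0.0498. For 4 of the 5 the difference was thus at least as large on a slide that held both strains and not SHR replicate 3. These arrays are also part of the main fit, so the values are not independent of it. The other 9 were uc.3- (-1.55), uc.48- (-1.48), uc.455- (-1.24), uc.408- (-1.18), uc.475+ (-1.13), uc.366- (-1.10), uc.193- (-1.06), uc.184+ (-0.94) and uc.436- (-0.85). uc.366- did not pass without SHR replicate 3 (adjusted p = 0.0693).

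The 3 higher probes were uc.153-, uc.339- and uc.154-. uc.153- read -6.61, -8.50 and -8.62 in Dahl R and -4.93, -6.57 and -4.65 in SHR. It was detected on 1 Dahl R array and on 2 SHR arrays, and its difference of 2.53 ± 0.67 (adjusted p = 0.0458, limma) did not pass without SHR replicate 3 (2.16, adjusted p = 0.0747). uc.339- differed by 1.24 ± 0.28, and by 0.91 without that array (adjusted p = 0.007). uc.154- read -2.98, -3.20 and -3.35 in Dahl R and -2.62, -2.81 and -2.32 in SHR, a difference of 0.59 ± 0.15 (adjusted p = 0.0408), or 0.46 without SHR replicate 3.

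Without SHR replicate 3, 30 probes were lower and 3 higher in SHR than in Dahl R, or 12.6% and 1.26%, beside 10.6% and 12.2% of all probes. With the slide as a block, 25 were lower and 3 higher, beside 16.0% of all probes in either direction. Of the original calls, 12 of the 14 and all 3 higher ones remained with that block. Leaving out Dahl R replicate 1, 2 or 3 lowered the total from 17 to 11, 9 and 10. Over all probes it fell from 2165 to 1065, 966 and 1158.

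In all, 33 probes passed in at least 1 comparison, 16 for plus and 17 for minus strands, and 206 tested probes passed in none. The opposite strand of 15 of the 33 was itself tested, and that of 13 was above background on no array, among them uc.189-, uc.407-, uc.390- and uc.3+. uc.455 was the element with both strands past a threshold. Its minus strand read 3.06, 2.75 and 2.64 in Dahl S, 2.49, 2.80 and 2.66 in Dahl R, and 1.98, 1.22 and 1.02 in SHR. The plus strand read -1.60, -1.85 and -1.86 in Dahl S, -1.79, -2.05 and -2.18 in Dahl R, and -2.54, -3.47 and -2.61 in SHR. Both lay lower on every SHR array than on every Dahl array. The differences between Dahl S and SHR were 1.41 ± 0.25 for the minus and 1.11 ± 0.25 for the plus strand, which was not above background on SHR replicate 3. On arrays with both strands above background the ratio of minus to plus lay between 4.51 and 4.66 log2 units in Dahl S and between 4.53 and 4.69 in SHR.

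For other elements the ratio of the strands within an array is given where both were above background. A comparison of 3 arrays with 3 cannot go below a 2-sided exact permutation p of 0.1, so ranges are reported. The ratio of uc.117+ to uc.117- was 3.01 log2 units on the 1 Dahl S array with both strands detected, between 2.67 and 3.15 in Dahl R, and -0.05 and 0.73 on SHR replicates 1 and 2. uc.117- itself read -7.71, -6.08 and -6.36 in Dahl S and -6.13, -5.34 and -4.73 in SHR, and its difference of -1.32 ± 0.47 did not pass (limma adjusted p = 0.103). The ratio of uc.408- to uc.408+ was 5.49 and 6.10 on the 2 Dahl S arrays with both detected and 5.10 and 5.38 on SHR replicates 1 and 2, so these ranges nearly met. For uc.414- over uc.414+ it lay between -0.54 and -0.20 in Dahl S, between 0.47 and 0.70 in Dahl R, and was 0.74 and 1.13 on SHR replicates 1 and 2, with no overlap among the strains. uc.414+ was nearly level across the 9 arrays, from -3.18 to -2.71. Over all 47 elements with both strands tested, the strands' differences had the same sign in 27 for Dahl S against Dahl R, in 25 for Dahl S against SHR and in 23 for SHR against Dahl R.

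By detection alone, 10 of the 962 probes were above background on all 3 arrays of one strain and on none of another. The share of all probes that meets this rule is not given here, so the count has no background beside it. uc.138+, uc.147- and uc.236+ were on all Dahl S and no SHR arrays. uc.122-, uc.138+ and uc.70+ were on all Dahl R and no SHR arrays. uc.92-, uc.95-, uc.278-, uc.305- and uc.378+ were on all Dahl R and no Dahl S arrays. All were dim where detected, between -6.57 and -3.81 on the arrays of the strain that had all 3. On SHR replicate 3 the lowest level of any probe above background was -2.99, so absence from SHR rests on replicates 1 and 2. uc.147- read -4.89, -5.48 and -5.54 in Dahl S and -8.58 and -8.93 on SHR replicates 1 and 2, but -4.51, without signal above background, on SHR replicate 3.

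Among elements often studied elsewhere, 15 were followed by name. Of their 30 probes, 8 were tested, 9 were detected on 1 or 2 arrays and 13 on none, and 8 of the 15 elements had neither strand tested. uc.8, uc.283, uc.323 and uc.454 were detected on no array for either strand. uc.323 is known from cardiac hypertrophy and uc.8 from bladder cancer. uc.173, known for its role in the gut lining, was detected through its minus strand on all 9 arrays at -2.71, -2.62 and -2.53 in Dahl S, -2.32, -2.88 and -2.95 in Dahl R, and -2.36, -2.87 and -1.91 in SHR. The strains overlapped. uc.63- was on 8 arrays with means of -4.22 ± 0.16 (SD, n = 3) in Dahl S, -4.0 ± 0.06 in Dahl R and -4.06 ± 0.36 in SHR. SHR overlapped both Dahl strains. The Dahl strains narrowly did not overlap, with -4.06 the highest value in Dahl S and -4.04 the lowest in Dahl R. Their difference of -0.22 ± 0.18 did not pass (limma adjusted p = 0.794). uc.338+, studied in liver cancer, read -7.75, -5.46 and -5.52 in Dahl S, -4.35, -4.61 and -4.70 in Dahl R, and -5.34, -4.66 and -3.41 in SHR. Dahl S lay below the other strains, but its difference from Dahl R of -1.69 ± 0.69 did not pass (limma adjusted p = 0.437).

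Of these elements, 4 lie in genes whose own mRNA probe could be set beside them: uc.138 in Tra2b, uc.189 in Srsf3, uc.338 in Pcbp2 and uc.475 in Ogt. Tra2b and Srsf3 encode serine and arginine-rich splicing factors, which control their own mRNA through an exon that leads to decay of the transcript and overlaps the element. Pcbp2 encodes an RNA-binding protein, and Ogt the enzyme that attaches N-acetylglucosamine to proteins inside the cell. The mRNA probes of all 4 genes were above background on all 9 arrays, and none passed in any of the 3 comparisons.

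uc.189+ read -2.92, -3.63 and -3.70 in Dahl S, -3.98, -4.01 and -3.99 in Dahl R, and -7.02, -5.90 and -4.78 in SHR. It was detected on all Dahl arrays and on SHR replicate 2. Dahl S exceeded SHR by 2.48 ± 0.50 (limma adjusted p = 0.0155). The difference was 3.04 without SHR replicate 3, where the probe was not above background, as on SHR replicate 1. It did not pass with the slide as a block (3.02, limma adjusted p = 0.0595) or with normexp (1.73, adjusted p = 0.157). Srsf3 differed in the same direction by 0.63 ± 0.23 (adjusted p = 0.114), with a usable value on 2 Dahl S arrays.

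uc.475+ read -0.10, -0.78 and -0.63 in Dahl S, -0.66, -0.28 and -0.38 in Dahl R, and -1.45, -1.59 and -1.68 in SHR, detected on all 9 arrays. SHR lay below Dahl S by 1.07 ± 0.19 (adjusted p = 0.0094) and differed from Dahl R by -1.13 ± 0.19 (adjusted p = 0.00827, limma). With the slide as a block the difference of Dahl S over SHR did not pass (1.34, limma adjusted p = 0.0977). That of SHR from Dahl R did (-1.18, adjusted p = 0.0219). Ogt pointed the other way, at 4.65 ± 0.04 (SD, n = 3) in Dahl S, 4.65 ± 0.03 in Dahl R and 4.96 ± 0.21 in SHR. Its difference between Dahl S and SHR was -0.31 ± 0.11 (adjusted p = 0.11), and -0.19 without SHR replicate 3. The 3 SHR values were 4.83, 4.86 and 5.20, above all 6 Dahl values. uc.475- was above background on 1 array. Pcbp2 differed by 0.19 ± 0.09 and Tra2b by 0.04 ± 0.09 between Dahl S and SHR, neither with a usable value on SHR replicate 3, whereas uc.338+ differed by -1.77 ± 0.69 and uc.138+ by 1.16 ± 0.60 without passing.

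**Figure D4:**
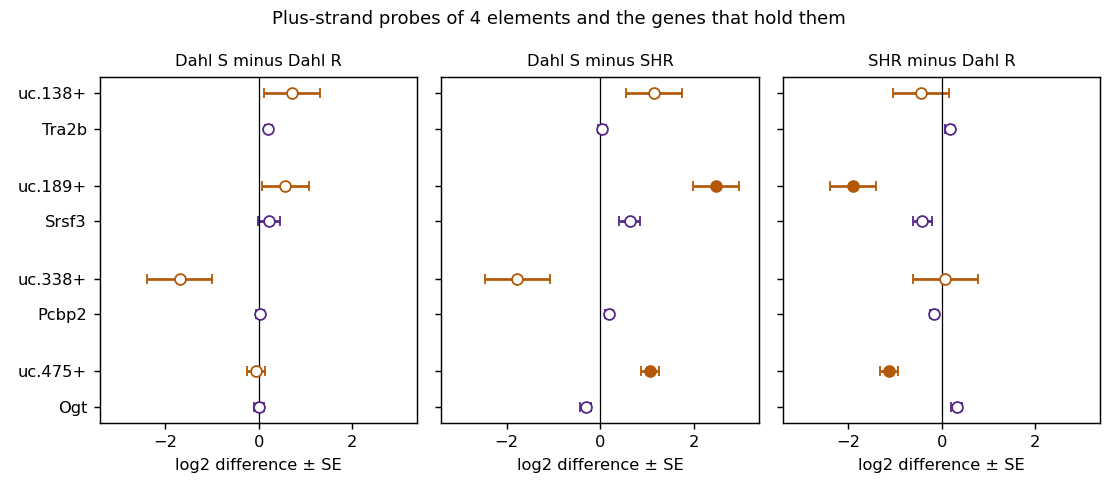
Log2 difference between strains with its SE (horizontal axis) for the plus-strand probes of uc.138, uc.189, uc.338 and uc.475 (orange) and the mRNA probes of Tra2b, Srsf3, Pcbp2 and Ogt that hold them (purple). Filled symbols passed the threshold. uc.189+ and uc.475+ are filled in both comparisons with SHR, and no gene is.

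Genes of the kinds that hold or neighbour ultraconserved elements were read on the same arrays. Of 32 splicing and RNA-binding regulators, 27 were tested. In Dahl S against SHR 1 was lower (Mbnl2, a regulator of alternative splicing, at -0.36 ± 0.10, limma adjusted p = 0.0408) and 0 were higher. Among all tested probes 8.62% were lower and 7.08% higher. In SHR against Dahl R 0 passed, beside 7.56% higher and 5.49% lower of all probes. Between the Dahl strains 0 passed as well, beside 0.705% higher and 0.699% lower in Dahl S. The Mbnl2 call was lost with the slide as a block (-0.19, adjusted p = 0.544). In this comparison 0 genes of the list were lower with normexp, the authors' values or outlier spots kept, and 1 with quantile normalization. Without SHR replicate 3 the counts were 5 lower and 0 higher in Dahl S against SHR, beside 13.2% and 13.0% of all probes. In SHR against Dahl R they were then 2 higher and 0 lower, beside 12.2% and 10.6%. The median difference between Dahl S and SHR was 0.01, beside -0.09 for all probes.

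Of 40 developmental transcription factors, 25 were on the array and 23 were tested. Between the Dahl strains 0 passed, beside 0.705% higher and 0.699% lower of all probes. Between Dahl S and SHR, 9 were higher in Dahl S and 1 was lower, beside 7.08% and 8.62% of all probes, with a median difference of 0.26 beside -0.09 for all probes. This median fell to -0.06 with the percentile over probes without outlier spots and to -0.07 with quantile normalization, each with 5 genes higher and 0 lower, while the 10 genes kept their direction under each alternative scaling. Nfib, a nuclear factor I protein of kidney and lung development, was at 1.23 ± 0.22 (SD, n = 3) in Dahl S, 1.02 ± 0.20 in Dahl R and -1.20 ± 0.32 in SHR, a difference between Dahl S and SHR of 2.43 ± 0.19 (SE, adjusted p = 0.000227, limma). Lhx1, a homeobox factor of early kidney formation, was 6.08-fold higher in Dahl S than in SHR (2.60 ± 0.36), with usable values on 2 arrays each of Dahl S and Dahl R. Both remained with the slide as a block, at 2.26 (adjusted p = 0.0241) and 3.20 (adjusted p = 0.011). With that block 2 genes were higher and 0 lower, beside 5.22% of all probes in either direction.

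The other 7 higher genes were Zeb2 (2.08), Nr2f2 (1.86), Nfia (1.82), Tcf4 (1.73), Ebf1 (1.05), Irx5 (0.76) and Sox5 (0.46), and Hoxd10 was lower (-0.57). Set against Dahl R, the same SHR arrays were lower in 8 genes and higher in 1, beside 5.49% and 7.56% of all probes, with a median of -0.49 beside 0.11 for all probes. With quantile normalization this median was -0.17 and with the percentile over probes without outlier spots -0.20, each with 4 lower and 0 higher, and with outlier spots kept it was -0.29. The 8 were Lhx1 (-2.71), Nfib (-2.22), Tcf4 (-1.83), Zeb2 (-1.78), Nfia (-1.64), Nr2f2 (-1.34), Ebf1 (-0.87) and Satb1 (-0.86). Within slide 2 the counts were 7 and 1, beside 2071 of 16559 tested probes in either direction, 49.0% of them higher in SHR. Whether the ultraconserved-region probes that differed lie near any of these genes was not tested, since no coordinates of the probes were at hand.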

How the data were processed

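Kidney RNA of 9 rats was measured on one-colour Agilent arrays. The authors deposited the scanner output of every array (Agilent Feature Extraction 10.5.1.1, per the submitters' processing notes). Its processed signal is an intensity after background subtraction, spatial detrending and a floor, without scaling across arrays, per the file headers. Other deposited columns flag spots as above background, saturated (0 spots here) or outliers. The authors also deposited a table of 19407 probes, read as log2 because its columns correlated with the scanner's log2 signals at r of 0.97 to 1.0. Its column medians were 9.63 to 9.64, and its normalization is not given in the sources used here.

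Log2 processed signals were expressed relative to the array's own 75th percentile (all non-control spots), and 1417 control spots and all outlier spots were left out. Tests were run where 3 or more arrays had a share of 0.5 or more of the probe's spots well above background, with no strain lacking usable spots. The 16592 such probes were fitted together with limma 3.58.1 in R 4.3.3 over the 9 arrays, with Benjamini-Hochberg adjustment over all of them. The number of arrays limits the precision. In data simulated for the contrast between the Dahl strains (16592 probes, 200 changed), changes of 1 and 2 log2 units were recovered in 51% and 80% of cases, with 5 false calls.

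Probes are named if they passed the threshold (at most the 15 largest differences per direction in detail), if they are the opposite strand of one that did, if they were above background on all arrays of one strain and none of another, if they belong to 15 often-studied elements, or if they are among the 5 brightest. Members, lists and rules were chosen with earlier results of these data known. Same-numbered replicates did not deviate together (r from -0.164 to 0.0682 over 14283 probes), so numbers did not pair samples. Alternatives covered background correction, scaling, filters, outlier spots, slide, replicate block, the authors' values and leaving out each array. Scaling to probes above background on every array, the within-slide fits and strand ratios on arrays with both strands detected were added after seeing the data. So were the folds over the Dahl S ceiling without SHR replicate 3. Sequences and genome positions of the ultraconserved-region probes were not analysed here.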

Additional observations from a re-analysis of the deposited data

How the results depend on the processing

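Counts of ultraconserved-region probes past the threshold moved with most choices, and so did the counts over all tested probes. They are given in the order of the report: the Dahl strains, then Dahl S with SHR, then SHR with Dahl R. Counts over all tested probes follow in parentheses for most settings. The values as reported were 1, 31 and 17 (233, 2605 and 2165). They were 0, 6 and 2 with normexp (43, 550 and 416). The percentile over probes without outlier spots gave 0, 7 and 3 (38, 609 and 482). Quantile normalization gave 0, 12 and 5 (57, 953 and 736). Scaling to the probes above background on every array gave 0, 16 and 11 (97, 1334 and 1094). Testing such probes alone gave 0, 10 and 6 (263, 2117 and 2020). The slide as a block gave 0, 11 and 28 (164, 866 and 2648). Fits that held only the 2 strains compared gave 5, 11 and 11 (746, 1076 and 1138). Without a filter the counts were 1, 18 and 11 (93, 1491 and 1188), and with the authors' values 0, 28 and 16 (168, 2038 and 1623). With outlier spots kept they were 1, 31 and 17 (215, 2380 and 1922). Slide 2 alone gave 27 for the last, beside 2071 of 16559 tested probes. Leaving out SHR replicate 3 and Dahl S replicate 1 together gave 2, 49 and 38 (701, 4337 and 4340). Leaving out each array in turn gave 0 to 5, 18 to 51 and 9 to 33 (74 to 761, 1317 to 4340 and 966 to 3768). Probes above background on all arrays of a strain numbered 148 to 162 in Dahl S, 191 to 207 in Dahl R and 48 to 193 in SHR with 1 array of that strain left out. With the replicate number as a block, although the numbers did not pair the samples, the counts were 0, 28 and 12 (75, 1902 and 1424). Over 49 called differences and 1002 alternatives, 614 kept direction and call, 382 kept direction but not the call, and 6 reversed. All 6 reversals came with normexp: uc.95- to 0.72 between the Dahl strains, and, between Dahl S and SHR, uc.95- to 0.17, uc.299+ to 0.88, uc.339- to 0.45, uc.378+ to 0.70 and uc.457+ to 0.37. Other scalings shifted the median of all probes between Dahl S and SHR from -0.09 to between -0.37 and -0.19, and normexp to 0.11. Apart from the filters and left-out arrays, which test fewer probes or samples, the cause was not tested. The filter on signal above background left 723 of the 962 probes out of the comparisons as reported, whereas the fit without a filter took in all 962.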
